A study of Rattus norvegicus with 26 samples.

Results

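The genes described here were those with lower expression in microglial cultures than in each of the other 3 brain cell cultures of the study. A gene entered the set when its mean log2 value over the 4 microglial arrays lay at least 1 log2 unit, a factor of 2, below its mean over the 4 neuronal, the 4 astrocytic and the 4 oligodendrocytic arrays. Of 14217 measured genes, 291 met this rule, or 2.05%. These means chose the genes, so the size of the microglial gap is given below as a description and supports nothing.

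Microglia are the resident macrophages of the brain. They arise from yolk sac progenitors of the blood lineage, whereas neurons, astrocytes and oligodendrocytes all descend from the neuroepithelium. The neuroepithelial lineages share adhesion molecules, cytoskeletal proteins and transcription factors that macrophages generally use little or not at all.

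The arrays were Affymetrix rat arrays of total RNA from primary cultures prepared from the cerebral cortex of newborn (P1) rat pups, with 4 biological replicates each of microglial, neuronal, astrocytic and oligodendrocytic culture. No strain, sex or treatment is given in the labels, and how each culture was purified is likewise not given in the sources used here. A further 10 arrays held RNA mixtures of 5 compositions in 2 replicates each, of which the mixture NAOM contained microglial RNA and the mixture NAO did not. One free-text field of microglia replicate 4 reads as a mixture although its cell type field names a microglial culture. That array was kept, and without it 252 genes met the rule, 243 of them in the set of 291.

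The cultures were checked against lists of cell type markers, averaged per array on the log2 scale. The list of 16 microglial markers averaged 11.20 ± 0.26 in microglial cultures, against 4.68 ± 0.10 in neuronal, 5.59 ± 0.85 in astrocytic and 9.19 ± 0.55 in oligodendrocytic cultures (SD, n = 4 each). Transcripts of the macrophage lineage were therefore abundant in the oligodendrocytic cultures as well. The 11 oligodendrocyte markers averaged 7.75 ± 0.63 in microglial cultures, against 5.07 ± 0.09 in neuronal, 5.71 ± 0.60 in astrocytic and 10.20 ± 0.83 in oligodendrocytic cultures. Mbp, the gene of myelin basic protein, was the brightest of this list in microglial cultures, with a mean of 12.08. Others were low there, such as Mog at 5.00 and Mobp at 4.21. The 5 markers of oligodendrocyte precursors averaged 8.29 ± 0.54 in microglial cultures. They averaged 6.41 ± 0.83 in neuronal, 6.78 ± 0.33 in astrocytic and 9.98 ± 0.13 in oligodendrocytic cultures. The microglial RNA thus carried oligodendroglial transcripts. The 11 astrocyte markers averaged 5.71 ± 0.19 in microglial cultures, 8.13 ± 0.93 in neuronal, 9.67 ± 0.50 in astrocytic and 6.94 ± 0.85 in oligodendrocytic cultures. Among the oligodendrocytic cultures replicate 1 was the highest on this list, at 8.17, and among the neuronal cultures replicates 3 and 4 were the highest. The 12 neuronal markers averaged 5.15 ± 0.31 in microglial cultures, 10.89 ± 0.10 in neuronal cultures, 5.53 ± 0.08 in astrocytic cultures and 5.99 ± 0.48 in oligodendrocytic cultures. In such bulk samples fewer cells of a type and less RNA per cell cannot be told apart. What the mixed content of the cultures contributed to the set was not tested.

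**Figure D1:**
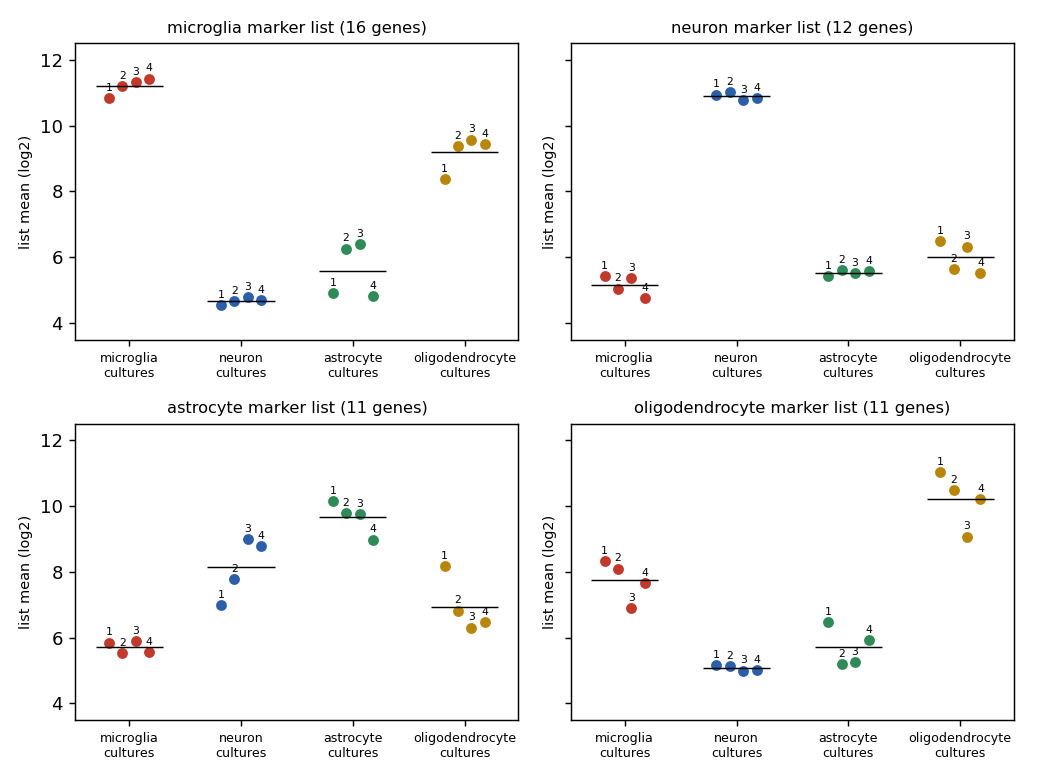
Mean log2 expression of 4 cell type marker lists on each of the 16 culture arrays, with the replicate number above each point and the culture mean as a bar. The microglial list averaged 11.20 in microglial and 9.19 in oligodendrocytic cultures, and the oligodendrocyte list averaged 7.75 in microglial cultures.

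The set crossed these markers unevenly. Of the 11 astrocyte markers 5 belonged to the set, namely Gfap, Aqp4, Gja1, S100b and Aldoc, and 8 had their lowest mean in microglia. Slc1a3 was higher in microglial than in oligodendrocytic cultures, at 9.41 against 8.87. Slc1a2 and Gjb6 were low in every culture, with astrocytic means of 4.65 and 3.29. Of 12 neuronal markers 1 belonged to the set (Stmn2), as did 1 of 10 fibroblast and meningeal markers (Col3a1) and 1 of 8 pericyte and smooth muscle markers (Tagln). None of the 11 oligodendrocyte markers did, nor any of the 5 markers of oligodendrocyte precursors, the 8 endothelial or the 4 ependymal markers. A gene could enter only if it was higher in neuronal and in astrocytic cultures too, and no oligodendrocyte marker had its lowest mean in microglia.

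In the set as a whole the median of the gene means was 5.97 in microglial cultures, against 8.98 in neuronal, 8.73 in astrocytic and 7.71 in oligodendrocytic cultures, in RMA log2 units. The gap between the microglial mean and the lowest other mean had a median of -1.37 and ran from -3.44 to -1.0. It reached 1.5 log2 units in 113 genes, 2 in 31 and 2.5 in 5. For 213 genes every microglial array lay below every other array, where 4.14% of all genes showed this. Limma called all 3 differences (adjusted p under 0.05 and a difference of 1) for 254 genes of the set, and 1.79% of all genes were called so. Genes named in this text that limma did not call include Sparcl1, Gpm6a, Gstm1, Ccn2 and Col3a1. Their largest adjusted p by limma was 0.229, 0.062, 0.0636, 0.22 and 0.231. The call compares means, so a called gene such as Bex4 could still have overlapping arrays. The rule used the same contrasts, so nothing is read from either count.

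The array medians lay between 5.25 and 5.31, and the microglial mean was at or above that level for 206 of the 291 genes. It was below every array median for the other 85, and for these the true difference may be larger than the measured one, because array values flatten near background. The array median compares different probe sets and is no detection limit, so neither count says which genes microglia express. The highest microglial means belonged to Scd2, a stearoyl-CoA desaturase of lipid synthesis, and Nedd4, a ubiquitin ligase. Scd2 had 10.60, 10.82, 10.92 and 9.95 in the microglial cultures, against a range of 11.19 to 12.80 over the 12 other arrays. Prnp, the prion protein gene, had 10.78, 10.69, 9.33 and 10.08 in the microglial cultures, against a lowest value of 11.18 elsewhere. Cpe, the carboxypeptidase that trims peptide hormones, averaged 10.39 ± 0.57 in microglial cultures and 13.18 ± 0.09, 12.82 ± 0.37 and 11.88 ± 0.25 in neuronal, astrocytic and oligodendrocytic cultures. These transcripts were bright in microglial RNA and brighter still elsewhere.

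**Figure D2:**
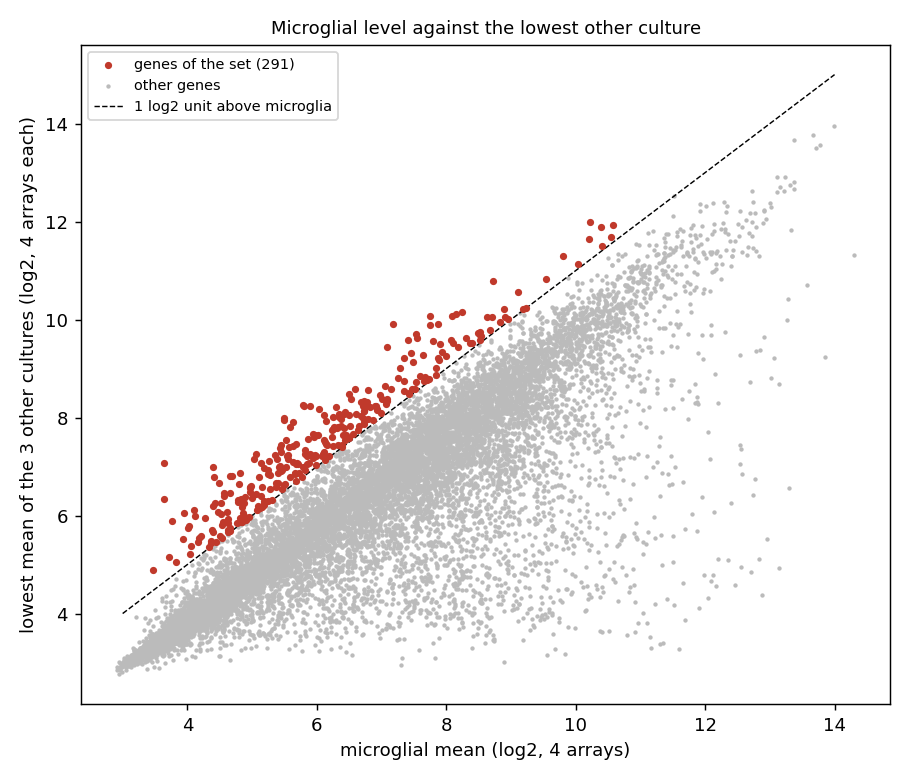
Each point is 1 of 14217 genes, with its microglial mean (log2, 4 arrays) on the horizontal axis and the lowest of its 3 other culture means on the vertical axis. The 291 genes of the set lie on or above the dashed line of 1 log2 unit, at microglial means from 3.48 to 10.57.

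The largest gap was that of Aqp4, and markers of astrocytes are described first. Aqp4, the water channel of astrocytic endfeet, had 3.75, 3.40, 3.89 and 3.51 in the microglial cultures. It had 7.33, 8.87, 10.51 and 10.23 in the neuronal, 12.67, 12.28, 12.29 and 9.97 in the astrocytic, and 10.66, 7.01, 5.17 and 5.47 in the oligodendrocytic cultures. Every microglial value was below the array medians, and the oligodendrocytic values spread widely, with replicate 1 far above replicates 3 and 4. Gfap, the astrocytic intermediate filament, had 8.26, 7.54, 6.57 and 8.63 in the microglial cultures, above the array median on all 4. In the oligodendrocytic cultures it had 11.82, 10.63, 8.78 and 9.04, so that the lowest of these stood close to the highest microglial value. Clu, a secreted chaperone also called apolipoprotein J, averaged 5.5 ± 0.28 in microglial cultures, against 9.78 ± 0.71 in neuronal, 12.64 ± 1.18 in astrocytic and 7.96 ± 1.22 in oligodendrocytic cultures. Aldoc, the brain form of aldolase, averaged 7.74 ± 0.50 in microglial cultures and was more even elsewhere, at 10.26 ± 0.66, 10.74 ± 0.62 and 9.89 ± 0.30. Gja1, the gene of connexin 43, averaged 5.27 ± 0.87 in microglial cultures against 7.10 ± 1.83 in oligodendrocytic cultures, and its arrays overlapped between those groups. By limma, Gja1 and S100b were not called lower than every other culture (largest adjusted p 0.103 and 0.0754). Aqp4, Gfap, Aldoc and Gja1 are themselves on the astrocyte marker list. Without oligodendrocyte replicate 1, the highest of its culture on that list, and astrocyte replicate 4, the lowest of its culture, 273 genes met the rule, 248 of them in the set. Without neuron replicates 3 and 4 there were 278, 274 of them in the set.

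**Figure D3:**
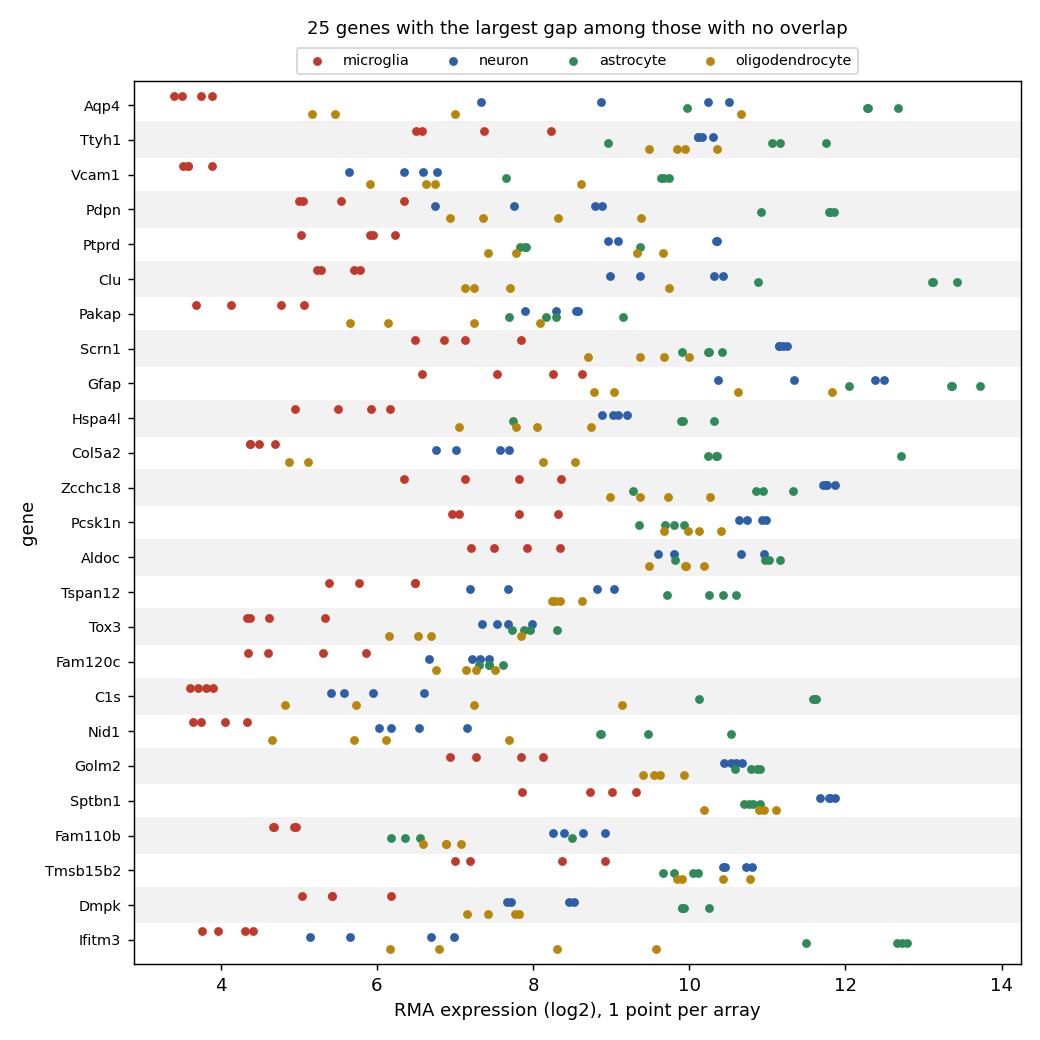
RMA log2 expression on each of the 16 culture arrays for the 25 genes with the largest gap among those whose microglial arrays lay below all others, with 1 point per array. Microglial points are leftmost in every row, while astrocytic and neuronal points change places between genes.

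Other genes with large gaps came from unrelated families. Ttyh1, a membrane protein of the tweety family, had 8.24, 7.37, 6.58 and 6.5 in the microglial cultures, against 8.96 or more elsewhere. Scrn1, secernin 1, which is named for a part in exocytosis, had 7.85, 7.13, 6.49 and 6.85 in the microglial cultures, against 11.15 to 11.25 in neuronal, 9.91 to 10.42 in astrocytic and 8.70 to 9.99 in oligodendrocytic cultures. Golm2, a Golgi membrane protein, had 8.12, 7.85, 7.28 and 6.94 in the microglial cultures, against 9.40 or more elsewhere. In all 3 genes the microglial arrays lay below all others, as the rule for naming these genes required. Microglia replicate 1 was the highest microglial array in each. Tox3, an HMG-box factor, averaged 4.66 ± 0.46 in microglial cultures, against 7.64 ± 0.27, 7.97 ± 0.24 and 6.80 ± 0.73 in neuronal, astrocytic and oligodendrocytic cultures. Tspan12, a tetraspanin that acts in norrin signalling, averaged 6.03 ± 0.55 in microglial cultures, against 8.18 ± 0.89, 10.25 ± 0.38 and 8.37 ± 0.18. Hspa4l, a heat shock protein of the Hsp110 family, averaged 5.64 ± 0.53 in microglial cultures, against 9.05 ± 0.13, 9.47 ± 1.17 and 7.91 ± 0.70. Fam120c, an X-linked gene, averaged 5.03 ± 0.69 in microglial cultures and was nearly level elsewhere, at 7.16 ± 0.34, 7.45 ± 0.12 and 7.17 ± 0.32.

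Vcam1, an adhesion molecule for leukocyte integrins, had 3.88, 3.52, 3.58 and 3.58 in the microglial cultures, against 5.65 or more on every other array. Pdpn, a mucin-like membrane glycoprotein, averaged 5.49 ± 0.63 in microglial cultures, against 8.04 ± 1.01 in neuronal, 11.59 ± 0.45 in astrocytic and 8.0 ± 1.08 in oligodendrocytic cultures. Sdc2, a heparan sulfate proteoglycan of the syndecan family, varied little between replicates, with 5.10 ± 0.20 in microglial, 7.82 ± 0.24 in neuronal, 10.99 ± 0.21 in astrocytic and 6.79 ± 0.28 in oligodendrocytic cultures. Among 23 measured integrin and matrix genes 3 belonged to the set, and the median gap of that list was 0.21. These were Sparcl1, a secreted synapse-organising protein, Nid1, a basement membrane linker, and Timp3, an inhibitor of metalloproteinases. Sparcl1 was not called by limma. Nid1 had 3.75, 4.06, 4.34 and 3.64 in microglial cultures, and the lowest value elsewhere was 4.66 in oligodendrocyte replicate 3. Col5a2, a fibrillar collagen chain, averaged 4.48 ± 0.15 in microglial cultures and 6.66 ± 1.94 in oligodendrocytic cultures, where 2 arrays read 4.87 and 5.12 and the others 8.54 and 8.13. Its mean gap thus rested on oligodendrocyte replicates 1 and 4. C1s, a protease of the complement cascade, and Ifitm3, an interferon-induced membrane protein, were also lowest in microglial cultures, at 3.76 ± 0.13 and 4.11 ± 0.30. Both were far higher in astrocytic cultures, at 11.24 ± 0.74 and 12.42 ± 0.62. The pericyte and smooth muscle list of 8 genes averaged 4.77 in microglial cultures, against 7.23 in astrocytic cultures. Its member Tagln, a calponin family actin binder, had 5.68 ± 0.48 in microglial cultures, against 8.12 ± 0.72 in neuronal and 13.39 ± 0.26 in astrocytic cultures. The lowest other mean was the oligodendrocytic, at 7.47 ± 1.76. The oligodendrocytic arrays of Tagln read 9.76, 6.16, 6.01 and 7.93, and overlapped the microglial arrays. Its largest adjusted p by limma was 0.0475. The markers Rgs5, Kcnj8, Abcc9 and Des of the pericyte and smooth muscle list were low in both microglial and astrocytic cultures. Their means were 3.64, 3.64, 3.48 and 4.48 in microglial cultures, against 3.80, 3.69, 3.41 and 4.33 in astrocytic cultures. The fibroblast and meningeal list of 10 genes averaged 4.55 in microglial cultures, against 4.59 in neuronal, 6.44 in astrocytic and 5.04 in oligodendrocytic cultures. The part of other cell types in these astrocytic values was not tested.

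Of 18 measured immunoglobulin superfamily adhesion genes, 2 belonged to the set and 6 had their lowest mean in microglia, with a median gap of 0.36 over the list. Ncam1, the neural cell adhesion molecule, had 5.70, 5.76, 5.41 and 4.83 in microglial cultures, against 8.96 to 9.64 in neuronal, 6.84 to 9.16 in astrocytic and 6.75 to 7.42 in oligodendrocytic cultures. Negr1, a neuronal growth regulator of the same superfamily, averaged 5.68 ± 0.73 in microglial cultures and 6.70 ± 0.29 in oligodendrocytic cultures, and its arrays overlapped. Of 19 cadherins and catenins 4 belonged to the set: Cdh2, Cdh11, Ctnna2 and Ctnnd2. Cdh2, the neural cadherin that joins neuroepithelial cells, had 7.96, 7.09, 6.50 and 6.67 in microglial cultures, against 8.36 or more on all other arrays. Ctnna2, the neural alpha-catenin, averaged 5.41 ± 0.54 in microglial cultures, against 9.49 ± 0.06 in neuronal, 6.99 ± 0.69 in astrocytic and 7.08 ± 0.22 in oligodendrocytic cultures. Ptprd, a receptor phosphatase of synapse formation, was the only 1 of 11 measured receptor phosphatases in the set, with 5.78 ± 0.52 in microglial cultures against 8.25 ± 0.74 in the next lowest, the astrocytic. One of 23 measured axon guidance genes belonged to it, the netrin receptor Unc5c. Unc5c was nearly level among the others, with 5.55 ± 0.14 in microglial cultures, against 7.24 ± 0.43, 7.57 ± 0.30 and 7.44 ± 0.19 in neuronal, astrocytic and oligodendrocytic cultures.

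Of 6 listed cytoskeletal genes in the set all but Septin11 were highest in neuronal cultures. Of 22 measured actin, septin and spectrin genes, 4 belonged to it. Sptbn1, a beta-spectrin of the membrane skeleton, had 9.32, 9.01, 7.86 and 8.72 in microglial cultures, against 11.68 to 11.87 in neuronal, 10.70 to 10.90 in astrocytic and 10.18 to 11.11 in oligodendrocytic cultures. Ank2, an ankyrin that ties membrane proteins to spectrin, averaged 6.25 ± 0.48 in microglial cultures and 10.92 ± 0.12 in neuronal cultures. Dbn1, the actin binder drebrin, and Septin11, a filament-forming GTPase, had gaps of -1.19 and -1.13. Of 27 tubulin and microtubule genes 2 belonged to the set. Map1b, a microtubule-associated protein of growing axons, had 8.45, 8.28, 7.57 and 7.97 in microglial cultures, against 9.02 or more elsewhere. Stmn2, a neuronal stathmin, averaged 4.86 ± 0.45 in microglial cultures, 13.19 ± 0.19 in neuronal, 11.47 ± 1.23 in astrocytic and 6.06 ± 1.08 in oligodendrocytic cultures. Its values overlapped between microglial and oligodendrocytic cultures, so that it met the rule by means alone. Among 17 proteolipid and tetraspan genes Gpm6a, Gpm6b and Tmem47 belonged to the set, and Gpm6b, which shapes the membrane in neurons and glia, was among the brightest at 10.41 ± 0.45 in microglial cultures.

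Of 25 measured neural transcription factors 4 belonged to the set, and for Nfib, Meis2 and Lhx2 the microglial arrays did not overlap the others. The same held for 213 of the 291 genes of the set. Nfib, a nuclear factor I protein of brain development, had 7.61, 7.26, 6.90 and 6.27 in microglial cultures, against 8.06 to 9.71 on the 12 other arrays. Lhx2, a homeodomain factor of the cortex, averaged 5.85 ± 0.66 in microglial cultures, against 8.98 ± 0.97 in neuronal, 10.31 ± 0.09 in astrocytic and 7.06 ± 0.59 in oligodendrocytic cultures. Its largest adjusted p by limma was 0.0452, and it lost the call without microglia replicate 2, 3 or 4. Meis2, a homeodomain factor, and Klf15, a zinc finger factor, had gaps of -1.09 and -1.05. Of 18 neural RNA-binding protein genes Rbfox2 and Khdrbs3, both regulators of splicing, belonged to the set. Rbfox2 had 4.45, 4.28, 3.95 and 4.04 in microglial cultures, and 5.21 or more elsewhere. Of 20 receptor tyrosine kinase and growth factor genes 2 belonged to it. Ptn, the growth factor pleiotrophin, was high everywhere, at 10.03 ± 0.46 in microglial cultures against 11.14 ± 0.21 in oligodendrocytic cultures, and Fgf13, an intracellular fibroblast growth factor homologue, was low in microglial cultures at 4.54 ± 0.58 and reached 11.47 ± 0.42 in neuronal cultures.

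Of 19 amino acid and solute carriers 3 belonged to the set. Slc7a11, the cystine and glutamate exchanger, had 4.47, 4.48, 4.66 and 4.6 in microglial cultures, and its order elsewhere differed from most of the set, since oligodendrocytic cultures were highest at 7.98 ± 0.69 and neuronal lowest at 5.86 ± 0.49. Slc38a1, a glutamine carrier, averaged 6.53 ± 0.72 in microglial cultures, against 9.78 ± 0.32, 9.25 ± 1.03 and 8.38 ± 0.12 in neuronal, astrocytic and oligodendrocytic cultures. Slc6a15, a carrier of neutral amino acids, averaged 4.56 ± 0.64 in microglial cultures and 6.40 ± 0.81 in oligodendrocytic cultures. The glutathione transferases Gstm1 and Gstm5 were 2 of 17 measured genes of their list, and Aldoc was 1 of 18 of the serine, creatine and one-carbon list. Fxyd6, a regulator of the sodium pump, was 1 of 15 pump and channel genes. The list of 14 Hippo pathway genes gave only Ccn2, a matricellular growth factor, at 4.62 ± 0.51 in microglial and 5.94 ± 1.92 in oligodendrocytic cultures.

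Other signalling families gave no member: none of 20 Wnt receptors and regulators, 15 Notch pathway genes, 16 Hedgehog and primary cilium genes, or 13 Eph receptors and ephrins. Lists this short could hold none at the share of 2.05% over all genes, so nothing is read from this absence. The mean was lowest in microglia for 8 of these Wnt, 3 Notch, 5 Hedgehog and cilium and 6 Eph genes, and for 2810 of all 14217 genes. Over 25 function lists 45 of 440 measured genes belonged to the set, or 10.2%, where 2.05% of all genes did. The lists were drawn up with results of these data known, so this share is a description. The largest share was in a list of 18 genes held to mark neural lineage cells in general, with 8 members: Ncam1, Gpm6b, Cdh2, Nfib, Map1b, Gpm6a, Nnat and Ptn. The median gap of that list was -0.51, where the median over all genes was 0.28, a positive value meaning that microglia were not lowest. Nnat, an imprinted proteolipid of neural development, spread most between microglial arrays, with 9.60, 8.21, 8.23 and 6.94 against 9.86 or more elsewhere.

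The X chromosome held the largest share of members of any chromosome in the RefSeq annotation of GRCr8. Of 448 measured X-linked genes 25 belonged to the set, or 5.58%, and the shares on the autosomes ran from 0.467% on chromosome 13 to 3.21% on chromosome 2. Of the 25, 9 lay in 1 stretch between Armcx4 and Zcchc18, a region chosen here after the positions of the members had been seen. Its families, Armcx, Gprasp, Bex and Tceal, are related small or armadillo-repeat proteins that lie together in placental mammals. Of 26 measured genes there, 9 belonged to the set: Armcx1, Armcx3, Armcx2, Gprasp1, Bex4, Bex3, Tceal1, Tmsb15b2 and Zcchc18. Among the other 17 genes 7 had their lowest mean in microglia, with a gap of only -0.07 for Tceal8, and 2810 of all 14217 genes had theirs there. Tmsb15b2, a thymosin, has close copies whose transcripts may share its probes.

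Promoters of the stretch were read from RefSeq, as windows of 250 bases before to 50 after each start, and are shown for 4 members because they contain the same short word near the start. A word of 6 letters, CACGTG, the palindromic E-box that reads alike on both strands, was searched for, and the 10-letter word was searched for on both strands. In the sequences below it stands in capitals and, where it lies within the 10-letter word TCACGTGACC, all 10 letters do.
Armcx1 (chrX:102191975-102192274, plus strand): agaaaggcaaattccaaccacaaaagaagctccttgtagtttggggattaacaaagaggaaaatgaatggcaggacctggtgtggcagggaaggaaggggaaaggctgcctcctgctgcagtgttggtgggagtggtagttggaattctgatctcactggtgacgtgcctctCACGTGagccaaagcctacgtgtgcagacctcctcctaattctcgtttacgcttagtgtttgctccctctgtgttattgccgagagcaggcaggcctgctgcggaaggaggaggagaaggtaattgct
Armcx2 (chrX:102278639-102278938, minus strand): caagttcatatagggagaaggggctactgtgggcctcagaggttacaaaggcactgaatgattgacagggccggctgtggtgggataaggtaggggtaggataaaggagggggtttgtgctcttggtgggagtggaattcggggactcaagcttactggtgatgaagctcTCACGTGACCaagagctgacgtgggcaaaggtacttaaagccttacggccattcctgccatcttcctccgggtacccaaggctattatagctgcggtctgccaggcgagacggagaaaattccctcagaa
Bex3 (chrX:104064646-104064945, plus strand): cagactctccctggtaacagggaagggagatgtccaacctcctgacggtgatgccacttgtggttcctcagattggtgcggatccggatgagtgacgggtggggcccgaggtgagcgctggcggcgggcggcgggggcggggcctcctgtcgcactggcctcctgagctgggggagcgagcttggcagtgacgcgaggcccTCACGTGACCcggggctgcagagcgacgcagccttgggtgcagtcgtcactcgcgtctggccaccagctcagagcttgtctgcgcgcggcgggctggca
Tceal1 (chrX:104850563-104850862, plus strand): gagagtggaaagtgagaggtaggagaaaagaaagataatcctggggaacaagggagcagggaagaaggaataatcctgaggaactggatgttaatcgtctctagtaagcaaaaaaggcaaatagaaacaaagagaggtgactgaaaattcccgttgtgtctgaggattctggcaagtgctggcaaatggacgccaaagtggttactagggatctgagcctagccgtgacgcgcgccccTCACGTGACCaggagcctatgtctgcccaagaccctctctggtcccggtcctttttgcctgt
The E-box was found in 4 of the 7 members of the stretch with a window, the 10-letter word in 3 of those (Armcx2, Bex3 and Tceal1). Measured genes of the stretch outside the set had the E-box in 5 of 14, and the 10-letter word in 3. Over promoter windows, the E-box was in 29.2% of 48 in the stretch, 10% of 259 of members, 8.62% of 13242 of measured genes and 6.42% of all 33469. The 10-letter word was in 16.7%, 1.16%, 0.634% and 0.341% of these. It was picked as the word shared by most genes of these same promoters and always contains the E-box, so both are descriptions. Of the 114 windows with the 10-letter word, 8 lay in the stretch.

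Expression of these neighbours differed in detail. Bex3, a small adaptor of neurotrophin receptor signalling, had 9.69, 9.50, 9.16 and 8.42 in microglial cultures, against 12.04 to 12.14 in neuronal, 10.04 to 10.65 in astrocytic and 10.55 to 10.81 in oligodendrocytic cultures. Armcx2, a mitochondrial armadillo-repeat protein, averaged 6.34 in microglial, 10.18 in neuronal, 8.90 in astrocytic and 8.08 in oligodendrocytic cultures. Tceal1, a transcription elongation factor A-like protein, had 7.34, 7.52, 6.55 and 6.33 in microglial cultures, against 7.89 or more elsewhere. Zcchc18, a zinc finger gene, had 8.36, 7.82, 7.13 and 6.34 in microglial cultures, against 8.98 or more elsewhere. Microglial arrays lay below all others for each of these 4 genes, as they did for 213 of the 291 genes of the set. Those of Bex4, also in the stretch and the set, overlapped the others. Outside the stretch, Maged1, a MAGE family gene, averaged 9.54 ± 0.63 in microglial cultures against 10.83 ± 0.21 in oligodendrocytic cultures, and Pcsk1n, an inhibitor of a prohormone convertase, 7.54 ± 0.65 against 9.70 ± 0.25 in astrocytic cultures.

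**Figure D4:**
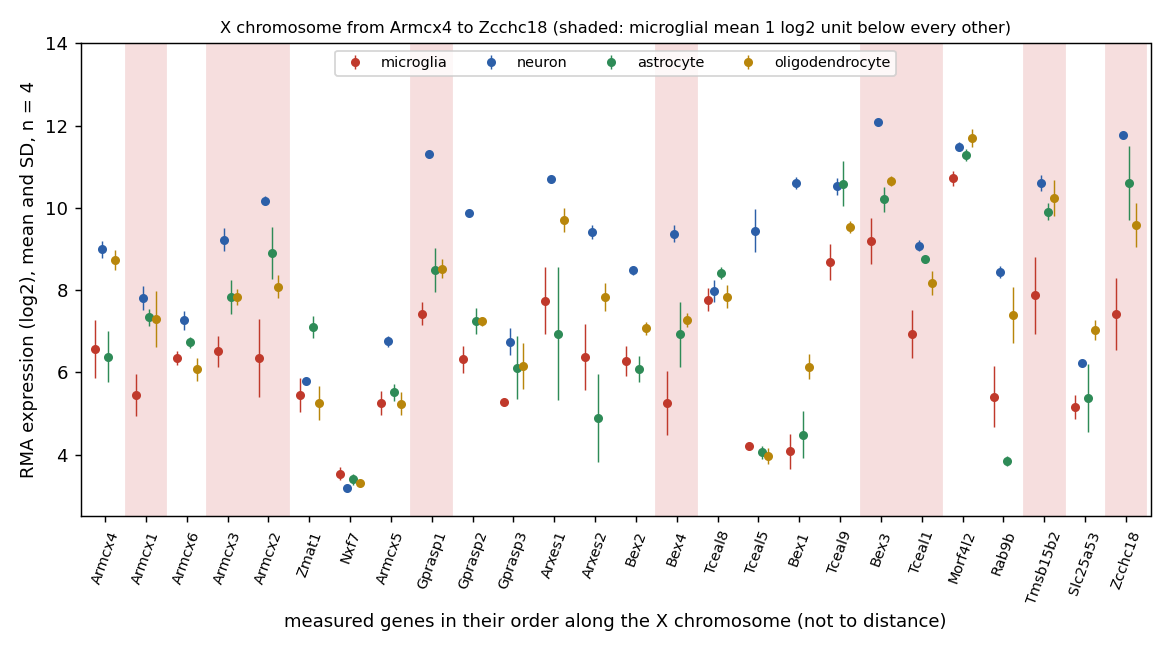
Mean RMA log2 expression with SD (n = 4 arrays per culture) for the 26 measured genes between Armcx4 and Zcchc18 on the X chromosome, in gene order and not to distance. Shading marks the 9 genes of the set, and neuronal means are the highest of the 4 cultures for all 9.

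Differences among the other 3 cultures were read from the same limma model. The rule used the means of these same arrays, so the counts describe the set and support nothing. Neuronal cultures exceeded astrocytic cultures in 88 of the 291 genes (30.2%, where 12.8% of all genes were called) and were below them in 63 (21.6%, against 17%). Neuronal cultures exceeded oligodendrocytic cultures in 122 (41.9%, against 12.7%) and were below them in 6 (2.06%, against 14.9%). Oligodendrocytic cultures exceeded astrocytic cultures in 10 (3.44%, against 9.19%) and were below them in 100 (34.4%, against 11.5%). Each call needed an adjusted p under 0.05 and a difference of 1 log2 unit. Oligodendrocytic cultures were the lowest of the 3 in 178 genes, astrocytic in 80 and neuronal in 33, where the lowest were oligodendrocytic in 29.8%, astrocytic in 27.6% and neuronal in 42.6% of all genes. The oligodendrocytic cultures were thus the culture that most often set the gap. Their microglial marker level, 9.19, is given above, and its part in these counts was not tested. Without the oligodendrocytic arrays 783 genes met the rule, but dropping a condition can only enlarge the set. The neuronal and astrocytic cultures were not left out in this way, so nothing is read from that count.

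Genes that were alike in the other cultures and genes that were not both occurred. The range of the 3 means was under 1 log2 unit for 79 genes and over 3 for 63, with a median of 1.69, against 0.79 over all genes. Schip1, a partner of the schwannomin tumour suppressor, had 8.71, 8.31, 7.91 and 7.45 in microglial cultures and means of 10.11, 10.08 and 10.08 in neuronal, astrocytic and oligodendrocytic cultures. Bpgm, a mutase of glycolysis, averaged 8.19 ± 0.27 in microglial cultures and 9.52 ± 0.05, 9.44 ± 0.15 and 9.56 ± 0.23 in the others. Dnajb2, a co-chaperone, and Ttc39c, a tetratricopeptide protein, were similarly level. At the other end, among genes named for these differences, Fgf13 was higher in neuronal than in astrocytic cultures by 3.62 (SE 0.34), and Stmn2 was higher in neuronal than in oligodendrocytic cultures by 7.13 (SE 0.55). Ifitm3 differed by -6.30 between neuronal and astrocytic cultures (SE 0.60). Synpr, a synaptic vesicle protein, averaged 10.39 ± 0.28 in neuronal cultures, 5.44 ± 1.73 in astrocytic and 5.46 ± 1.30 in oligodendrocytic cultures, beside 4.37 ± 0.55 in microglial cultures, whose arrays overlapped those of both glial cultures. S1pr3, a sphingosine 1-phosphate receptor, had its highest mean in astrocytic cultures, at 11.42 ± 0.54, beside 4.52 ± 0.41 in microglial cultures. The 10 genes higher in oligodendrocytic than in astrocytic cultures were Lcn2, Acss2, Sc5d, Pfn2, Slc7a11, Cdh11, Fxyd6, Agpat4, Ccl20 and Fdft1, named after their values were seen. Of these, Fdft1, squalene synthase of the cholesterol pathway, differed by 1.91 (SE 0.19), with a microglial mean of 6.5.

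The microglial arrays differed among themselves across the set. The median of the 291 genes was 6.43 in replicate 1, 6.12 in replicate 2, 5.76 in replicate 3 and 5.61 in replicate 4. Replicate 1 held the highest of the 4 microglial values in 193 of the 291 genes, where it did so in 29.6% of all genes. Replicate 4 held the lowest in 151 and replicate 3 in 103. The share over all genes was not computed for the lowest value, so nothing is read from these counts. Replicate 1 also had the highest oligodendrocyte marker level of the 4, at 8.33, and replicate 3 the lowest, at 6.90. The astrocyte marker level had another order, at 5.85, 5.53, 5.90 and 5.55 in replicates 1 to 4. The microglial marker level was lowest in replicate 1, at 10.84, and highest in replicate 4, at 11.43. The part of these differences in the gaps was not tested. Without microglia replicate 1 the rule gave 353 genes, 287 of them in the set.

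The RNA mixtures measured the set on arrays the rule did not use, although their RNA came from some of the same cultures. In NAOM the microglial fraction of the RNA was 0.1 and the astrocytic and oligodendrocytic fractions were 0.2 each. In NAO, with no microglial RNA, both of the glial fractions were 0.25. The neuronal fraction was 0.5 in both mixtures. The 2 replicates drew on microglia replicates 2 and 3. The median difference NAOM minus NAO over the 291 genes was -0.07 (-0.06 in replicate 1 and -0.09 in replicate 2), where the median over all genes was 0.01. The value computed from the stated fractions and the parent arrays was -0.09. In 216 of the 291 genes the difference was below 0 (74.2%), as it was for 47.0% of all genes. It was below 0 in both replicates for 158 (54.3%), against 27.3% of all genes. Both the measured and the computed shift of the set were thus small. No gene of the set was called lower in NAOM by limma (0% of all genes were), and none was called higher, where 0.0703% of all genes were. This limma fit did not pair the 2 replicates. At its unadjusted p under 0.05, 5 genes of the set were lower, namely Cnn3, Igfbp7, Rbfox2, Bmp6 and Selenow (named after their values were seen), and 0.893% of all genes were.

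Ifitm3 read 10.85 and 9.45 in NAOM, against 11.34 and 9.83 in NAO, and Nid1 read 7.36 and 8.28 in NAOM, against 7.84 and 8.62 in NAO. Both genes were lower in NAOM in each replicate. Rbfox2 read 7.95 and 8.14 in NAOM, against 8.41 and 8.57 in NAO, a mean difference of -0.45 where the fractions gave -0.04. Gprasp1, a sorting protein for G-protein-coupled receptors, read higher in NAOM, at 10.70 and 10.52, against 10.57 and 10.41 in NAO. Its mean difference was 0.13 where the fractions gave only -0.01. None of these differences passed the test.

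**Figure D5:**
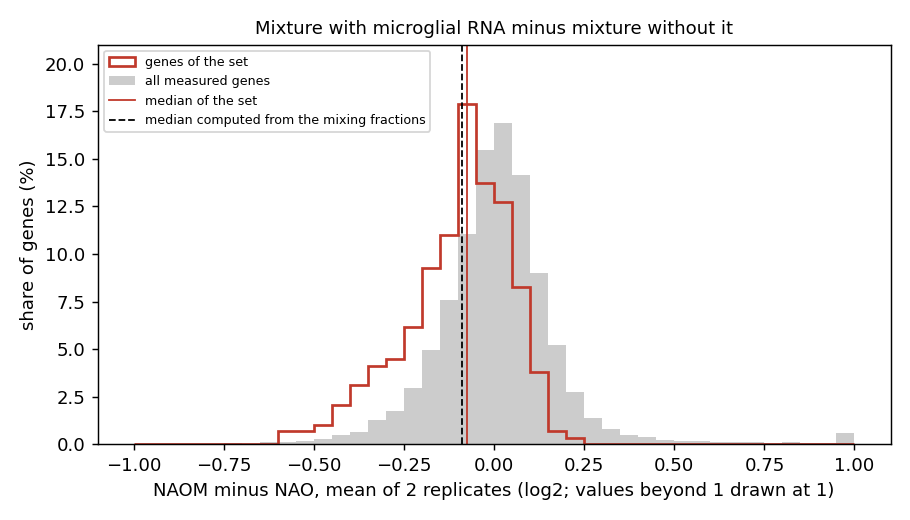
Distribution over genes of the log2 difference NAOM minus NAO, as the mean of 2 replicates, for the 291 genes of the set (outline) and for all 14217 genes (grey), in percent of genes per bin. The median of the set (-0.07) and the median computed from the mixing fractions (-0.09) lie side by side below 0.

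The threshold passed through a continuous range. Just inside it lay Hivep1, Stard10 and Kiaa1191, and just outside it lay Epb41l1, Asns and App, all 6 with gaps that round to -1.0. App, the amyloid precursor gene, averaged 11.52 ± 0.11 in microglial cultures, against 12.91 ± 0.10, 12.63 ± 0.08 and 12.52 ± 0.48 in neuronal, astrocytic and oligodendrocytic cultures. A gene was represented by 1 probe set, and of the 126 genes of the set with several probe sets, all probe sets met the rule in 27 and all were lowest in microglia in 75. By the same rule 1015 genes were lower in neuronal, 229 in astrocytic and 38 in oligodendrocytic cultures than in every other culture.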

How the data were processed

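The authors deposited log2 expression values made by RMA with the affy package, per the submitters' processing notes; versions are not given in the sources used here. RMA corrects background, makes the arrays' distributions alike and summarises probes into probe sets, and so hides shifts common to all genes. Here 57 control probe sets were left out of 31099, leaving 31042. Of these 20826 had exactly 1 gene symbol in the platform annotation, 436 several and 9780 none, and 20758 of the first matched RefSeq. Each gene was represented by its brightest probe set, by mean of the 26 arrays.

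Tests used limma 3.58.1 (R 4.3.3; lmFit, eBayes), on the 16 culture arrays with 1 mean per culture and, separately, on the 10 mixture arrays, with Benjamini-Hochberg adjustment over all probe sets per contrast. The number of arrays limits precision. Replicate numbers did not pair the cultures (deviations correlated from -0.11 to 0.18), but paired the mixtures (0.38 to 0.87), whose replicates have their own parent cultures. Fits were tested on simulated data.

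The genes, lists and named-gene rule were chosen with earlier results of these data known. Named were the 25 largest gaps without overlapping arrays, the 3 genes on each side of the threshold, the 5 highest microglial means, the 5 genes at each end of the neuron-to-glia difference, the 5 with the smallest range of the other means, and list genes. Alternatives covered normalisation, probe set choice, low values, thresholds, left-out arrays and blocks.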

Additional observations from a re-analysis of the deposited data

Results flagged for a closer look

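Among 49 genes named by size, 196 groups of 4 arrays were examined for an array far from the others, by its gap to the nearest array as a share of the group's range. Of these 17 passed Dixon's critical value, where chance flags about 1 in 20. Astrocyte replicate 4 was the distant array in 14. It was low for Aqp4 (gap share 0.855), Vcam1 (0.949), Pdpn (0.930), Clu (0.874), Hspa4l (0.835), Aldoc (0.855), C1s (0.972), Ifitm3 (0.906), Scd2 (0.860) and Dnajb2 (0.965). It was high for Ptprd (0.949), Col5a2 (0.951), Fam110b (0.841) and Dmpk (0.918). Clu, for example, read 10.88 in astrocyte replicate 4, against 13.11 to 13.43 in the other astrocytic cultures. Marker lists moved with this array. The fibroblast and meningeal list averaged 7.71 in astrocyte replicate 4, against 5.95 to 6.06 in the other astrocytic cultures, and the ependymal list averaged 4.81, against 7.52 to 8.59. Their part in these values was not tested. Astrocyte replicate 1 was low for Prkar1b (0.911) and high for Bpgm (0.832), and neuron replicate 2 was high for Zcchc12 (0.924).

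Probe sets without exactly 1 gene symbol stood outside every comparison. Of them 126 met the same rule, beside 389 probe sets with 1 symbol.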

How the results depend on the processing

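The set held 291 genes and the called subset 254. Both moved by over 1.5 times with the threshold, as its construction sets: 830 genes (573 called) at 0.5 log2 units, 113 (102) at 1.5 and 31 (30) at 2. They moved likewise when every probe set of a gene had to meet the rule (192 and 163) and without the oligodendrocytic cultures (783 and 751). By construction the former could only shrink the set and the latter only enlarge it. Requiring 1 unit below every other array, a choice made after seeing the data, gave 109. Median centring gave 275 genes and quantile normalisation of the cultures 272. Leaving out 1 culture array gave 252 to 353 genes and 203 to 303 calls. With the replicate block 262 were called, and the block moved no other count by over 1.5 times. In the paired fit of the mixtures 0 genes of the set were lower in NAOM. Col5a2 and Tagln lost the call without any 1 of the microglial arrays. Without microglia replicate 4, 17 of 87 named genes lost it, but the 87 include genes that lacked it with all arrays, such as Synpr and Stmn2. No named gene changed direction without any 1 microglial array, though the gaps that chose these genes left little room for that. Values near the array median limit how far low genes can be told apart.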
